A study of Mus musculus with 14 samples.

Results

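The pancreas libraries are 2 of 14 tag libraries from C57BL6 mice, and here they are set against the 12 libraries of the other 6 tissues. They were chosen by the tissue in their sample titles, 1 from a female and 1 from a male. The other tissues were bone marrow, hippocampus, liver, parotid gland, spinal cord and stomach, again with 1 female and 1 male library each, and all were unperturbed. By their titles, female liver is the right lobe, male liver the left lobe, and spinal cord the entire cord. Age and the number of animals behind a library are not given in the labels used here.

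The exocrine pancreas is made of acinar cells, which synthesise digestive enzymes on a dense rough endoplasmic reticulum, store them in zymogen granules and release them when cholecystokinin or acetylcholine raises cytosolic calcium. Ducts carry the enzymes to the duodenum in a bicarbonate-rich fluid. Islets of Langerhans, a small part of the organ, release insulin, glucagon, somatostatin and islet amyloid polypeptide into the blood.

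Each measurement is the number of times a 20-base tag was sequenced, and tags that the authors placed on the same transcript cluster were summed to a gene count. Levels are given in CPM, where the scale is set by all gene-assigned counts of the same library. Where a pair of pancreas values is given, the female library comes first. The female and male pancreas libraries held 3003859 and 2915699 counts, and the 12 others held 2194028 to 3834568. Where a pancreas library has 0 counts of a gene, the level may still be up to 1.08 CPM (female) or 1.13 CPM (male), a limit of 3 counts for counting error only. In these whole-organ samples, fewer cells of a type and less RNA per cell cannot be told apart.

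The acinar markers were where the label puts them. Amy2a, the pancreatic alpha-amylase, stood at 343489 CPM (female) and 246815 CPM (male). In the 12 other libraries it ran from 0.367 through a median of 16.4 to 2136 CPM in the female stomach library. Ctrb1, a chymotrypsinogen, stood at 120205 and 172190.0 CPM against at most 709 CPM elsewhere. Prss2, an anionic trypsinogen, stood at 85636 and 109415 CPM against at most 737 CPM. For all 3 markers the lower pancreas library was more than every other library, by 116-fold for Amy2a, 169.6-fold for Ctrb1 and 116-fold for Prss2, and the groups did not overlap.

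The tags behind the leading enzyme counts are shown because almost every count of these genes rests on 1 tag. The capitals mark the recognition site of the enzyme DpnII, after which the tag was read.
Amy2a: GATCagaatgactggattgg
Ctrb1: GATCttggaagccaactaag
Prss2: GATCtgtgttggcttcctgg
Try5: GATCtgtgttggcttcctag
Cela2a/Ctrc: GATCaactcggtgatggcaa
Pnlip: GATCacagtggaaagaaatg
Cpa1: GATCatccccacagcggagg
Clps: GATCacgcagttagctgggt
Klk1: GATCtgtgatggtgttctcc
Reg1: GATCctgtcttcctggagag
Reg2: GATCtcttttgccagaacat
The Amy2a tag gave 98.8% of that gene's counts in the female and 98.2% in the male pancreas library, and the Ctrb1 tag gave 97.8% and 97.3%. The mouse genome carries several near-identical Amy2a copies, and a shared tag does not separate them. Tags that differ from the Amy2a tag by a single base and were at least 100 times rarer summed to 1.98% and 2.39% of its count.

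The Prss2 and Try5 tags, both from trypsinogens, differ at a single base, G19A, counted from 1 at the 5′ end of the tag. The differing base is in capitals in this pair.
Prss2: gatctgtgttggcttcctGg
Try5: gatctgtgttggcttcctAg
The Try5 tag was counted 176656 times in the female and 184390 times in the male library, which is 78.0% and 66.3% of the Prss2 tag. The most frequent rare variant of the Prss2 tag, G19C, reached 2.81% and 2.80% of it. That same tag is also 1 base from the Try5 tag, at 3.61% and 4.23% of it, and cannot be assigned to either. The split of counts between these paralogs rests on that 1 base.

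Digestive enzymes took up most of the pancreatic transcript counts. The 21 genes for proteases, carboxypeptidases, amylase, lipases and nucleases took 88.2% ± 0.0544 (SD, n = 2) of all gene counts. Their share was 0.000969% to 11% in the other libraries, highest in stomach. The proteases alone took 38.8% (female) and 48.0% (male), and Amy2a took 34.3% and 24.7%. The 10 most abundant genes took 80.3% ± 0.155, against 18.7% to 77.0% elsewhere. That left 327522 and 311933 counts for every other gene, and 10846 and 9519 genes were detected, against 13708 to 17833 in the other libraries.

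**Figure D1:**
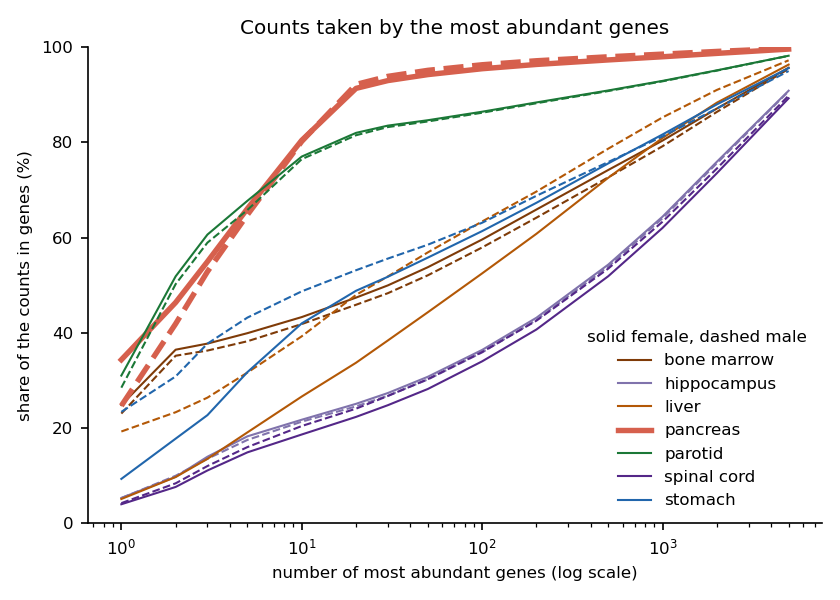
Share of the counts assigned to genes (percent, vertical) taken by the most abundant genes of each library, against the number of genes summed (log scale, horizontal); solid lines are female and dashed lines male libraries. Both pancreas lines pass 80% at 10 genes, and only the parotid lines come near them.

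This composition sets the scale of every comparison. In the edgeR quasi-likelihood test with TMM scaling, which rests on the bulk of genes and gave the pancreas libraries factors of 0.183 and 0.147 (0.557 to 2.49 in the others), 930 of 14682 genes tested were called higher in pancreas than the mean of the other 6 tissues (6.33%). A further 476 were called lower (3.24%). Together they made 1406 calls (9.58%). Genes were called where the fold was 2 or more and the p-value, adjusted by Benjamini-Hochberg, stayed under 0.05. Scaling by library totals instead of TMM called 193 genes higher (1.31%) and 10431 lower (71.0%), and the median log2 fold of all genes moved from -0.59 to -3.26. All 193 were among the 930, all 476 stayed lower, and 582 genes called higher with TMM (3.96%) lay below 0 with library totals. Below, a gene called higher is one called with TMM, and it is said where library totals turn its direction. List counts with library totals are to be read beside 1.31% higher and 71.0% lower over all genes, and list medians beside -3.26. Without the female pancreas library 469 genes were called higher and 103 lower, and without the male 520 and 86. Without the female stomach library 1257 were called higher and 951 lower, and without the male 1164 and 937.

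Of the 930 genes, 62 (0.422% of those tested) had both pancreas libraries above all 12 others in CPM. The 25 most abundant of them were chiefly digestive enzymes and granule products, with the trypsin inhibitor Spink3, the lectin-like Reg1, the tissue kallikrein Klk1, the scavenger-receptor protein Dmbt1 and the disulfide isomerase Pdia2. Stomach was the next highest tissue for 43 of the 62 genes and for 23 of these 25, and parotid for 7 and 1. The fitted log2 folds of genes at 0 in other tissues depend on the prior count. They are to be read with the CPM levels in the other libraries and not as the distance from the highest of these.

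**Figure D2:**
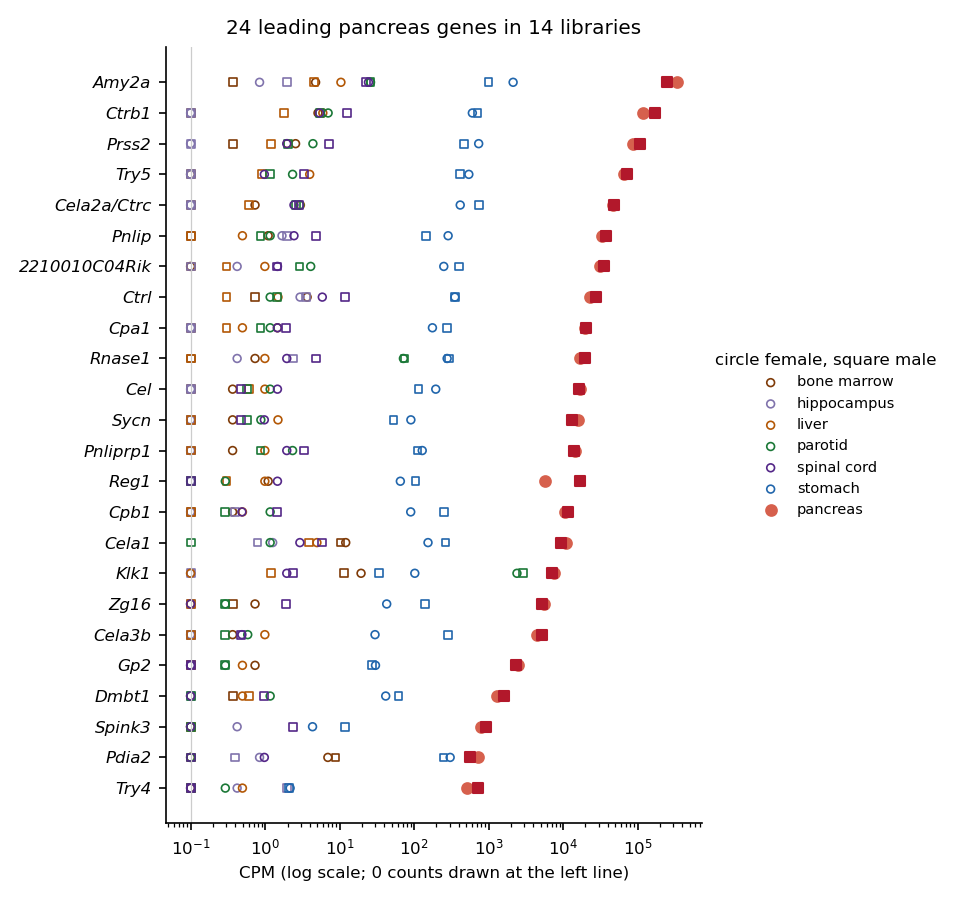
CPM (log scale) of 24 of the 25 most abundant genes called higher in pancreas whose 2 pancreas libraries lie above all 12 others; filled symbols are pancreas, open symbols the other libraries, circles female and squares male, and a count of 0 is drawn at the left line. The pancreas symbols lie to the right of all others for every gene, and stomach is the next tissue for 23 of them.

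Beside 6.33% of all genes tested, all 9 tested serine protease genes were called higher. Each of the 9 had both pancreas libraries above all 12 others. Their median log2 fold was 17.23, beside -0.59 over all genes tested, and it was 14.34 with library totals. These zymogens are cleaved to active enzymes in the duodenum, where trypsin activates the rest. Try5 stood at 65015 CPM (female) and 71163 CPM (male), against 0 to 543 CPM elsewhere (log2 fold 18.39 ± 0.60, SE, edgeR adjusted p = 4.03e-13). The trypsinogen-like 2210010C04Rik stood at 31634 and 35906 CPM against at most 403. Try4, a far weaker trypsinogen, stood at 506 and 723 CPM against at most 2.17 CPM. It passed the filter for testing only on its pancreas counts, so its call adds nothing to that selection. A tag is counted once per transcript copy whatever its length, and on that scale Prss2 was the highest and Try4 the lowest trypsinogen in both libraries.

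Elastases and chymotrypsins followed the same order in both libraries. The cluster that carries both Cela2a, an elastase, and Ctrc, chymotrypsin C, stood at 46477 and 48296 CPM against at most 748 CPM. The chymotrypsin-like Ctrl stood at 23302 and 27312 CPM against at most 353. The elastases Cela1 (10909 and 9506 CPM) and Cela3b (4463 and 5279 CPM) were lower, and their highest other libraries, both stomach, reached 265 and 286 CPM. The female library was lower than the male for Ctrb1 and higher for Cela1, and none of these differences between the sexes passed the test.

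Carboxypeptidases, which trim amino acids from the ends of peptides, were among the genes called higher. Cpa1 stood at 19547 and 20471 CPM and Cpb1 at 10538 and 11624 CPM, against at most 279 and 252 CPM elsewhere, both in the male stomach library. The lower pancreas library was 70.0-fold above that level for Cpa1 and 41.8-fold for Cpb1. Cpa3, the mast cell carboxypeptidase, was counted 0 times in the female library and stood at 1.13 CPM in the male, and its test gave log2 fold 3.19 ± 1.31 (edgeR adjusted p = 0.158).

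All 9 tested genes of the amylase, lipase and nuclease list were called higher (median log2 fold 15.73). With library totals and with DESeq2 8 of them were, and Dnase1 was the 1 not called. The Dnase1 log2 fold was 3.77, and 1.80 without the female pancreas library. Pancreatic lipase, Pnlip, which splits dietary triglyceride, stood at 33702 and 38256 CPM, and the related Pnliprp1 stood at 14392 and 14138 CPM. The bile salt-stimulated lipase Cel stood at 16878 and 16508 CPM, and the secreted ribonuclease Rnase1 at 17109 and 20012 CPM. For these genes the highest other library was a stomach library, at 129 to 292 CPM. Pnliprp2 was lower, at 446 and 542 CPM, with 38.5 CPM in the male stomach library.

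A total of 3 members of that list were not highest in pancreas. Clps, the colipase that anchors lipase to fat droplets, stood at 35112 and 32100.4 CPM in pancreas and at 83888 ± 13423 CPM (SD, n = 2) in stomach. Pla2g1b, the secreted phospholipase A2, stood at 613 and 575 CPM in pancreas and at 19826 ± 13593 CPM in stomach. Dnase1, the secreted deoxyribonuclease, stood at 2.53 and 0.377 CPM in pancreas and at 12926 ± 1669 CPM in parotid. The salivary amylase cluster Amy1 showed the same order, with 1490.2 and 2086 CPM in pancreas and 87286 ± 467 CPM in parotid. Its most frequent tag in pancreas gave only 46.0% and 67.2% of the Amy1 counts there. The Amy1 log2 fold was 7.10, and 2.32 with tags of code 1 only. The groups overlapped for each of these 4 genes, and their calls against the mean of the other 6 tissues rest on the tissues where they were near 0.

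Of 20 tested genes for granule cargo, granule membrane and inhibitors, 11 were called higher and none lower with TMM (median log2 fold 4.03). With library totals 10 were higher and 8 lower (median 1.15). Both pancreas libraries lay below all 12 others in CPM for 6 of the 22 members found, beside 50.4% of all genes tested. Sycn, syncollin of the granule membrane, stood at 15879 and 13391 CPM against 0 to 90.6 CPM elsewhere. The granule lectin Zg16 stood at 5632 and 5159 CPM, and Gp2, the main granule membrane glycoprotein, at 2459 and 2348 CPM. Cuzd1, a granule membrane protein, stood at 342 CPM in both, with at most 1.73 CPM elsewhere. The inhibitor Spink3, which blocks trypsin that becomes active too early, stood at 802 and 933 CPM against at most 12 CPM. The serpin Serpini2 stood at 117 and 129 CPM against at most 0.520 CPM. Cuzd1 and Serpini2 passed the filter for testing only on their pancreas counts, so their calls add nothing to that selection. Tff2, a trefoil peptide, was higher in stomach (6357 ± 295 CPM) than in pancreas (1772 and 1963 CPM). Among proteins that move granules, Rab3d stood at 8.32 and 7.54 CPM, inside the range of the others (1.95 to 96.7 CPM), and its log2 fold of 2.54 turned to -0.48 with library totals.

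Some genes were counted almost nowhere else. With at most 3 counts in any other library, 12 called genes met that limit, of 14682 tested. Of all 22221 genes, 8 had counts only in the pancreas libraries. The 12 genes could pass the filter for testing only on their pancreas counts, so their calls add nothing to that selection. Tmed11, a p24 cargo receptor of the early secretory pathway, stood at 181 and 168 CPM against at most 0.433 CPM. Cabp2, a calcium-binding protein, stood at 41.6 and 38.1 CPM against at most 1.04 CPM, and the uncharacterised 1810035K13Rik at 30 and 19.2 CPM against at most 0.867 CPM. A cluster with no gene symbol stood at 79.9 and 63.4 CPM against at most 0.488 CPM. G6pc2, the islet glucose-6-phosphatase, stood at 3.98 and 7.92 CPM and was counted 0 times in every other library.

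Of 5 tested kallikreins, 3 were called higher. Klk1, the tissue kallikrein that releases kinins, stood at 7565 and 7117 CPM against 0 to 2931 CPM elsewhere, with parotid next at 2668 ± 371 CPM, and did not overlap (log2 fold 12.77 ± 0.44, edgeR adjusted p = 2.82e-13). Klk1b21 and Klk1b24 were also called higher, at 20.6 and 30.5 CPM and at 26.8 and 40.0 CPM. Every count of both came from 1 tag each, and those tags lie 1 base from the Klk1 tag. The differing base is in capitals in this set, G14A for Klk1b24 and C19A for Klk1b21.
Klk1 against Klk1b24: gatctgtgatggtGttctcc
Klk1b24: gatctgtgatggtAttctcc
Klk1b21: gatctgtgatggtgttctAc
The Klk1b24 tag was 0.359% and 0.574% of the Klk1 tag in the female and male pancreas libraries, and the Klk1b21 tag was 0.277% and 0.438%. The most frequent rare variant of the Klk1 tag, C20T, was 0.558% and 0.709% of it. Whether Klk1b21 and Klk1b24 transcripts were present was not tested.

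Nearby tags of this kind held 0.662% and 0.742% of the pancreas gene counts. A total of 10 genes called higher in pancreas drew more than 50% of their counts in both pancreas libraries from tags 1 base away from a tag at least 100 times as abundant. Besides both kallikreins they included a second cluster named Cela3b (26 and 32 counts), Casp9 (79 and 95 counts, next to the Cela2a/Ctrc tag) and a cluster with no gene symbol (43.4 and 45.3 CPM, next to the Amy2a tag). In a count without such tags, chosen after the data were seen, 920 genes were called higher and 465 lower, of which 914 and 462 were shared with the calls above.

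In the Reg family the female and male pancreas libraries stood several-fold apart. Reg proteins are secreted C-type lectins of acinar cells that rise in pancreatic injury. The filter for testing kept 3 of the 7 members found, and all 3 were called higher than in the other tissues. Reg2 and Reg3d passed that filter only on their pancreas counts, and the untested members were low in pancreas too. The number called therefore does not describe the family. Reg1 stood at 5675 CPM (female) and 16788 CPM (male), against 0 to 105 CPM elsewhere. Reg2 stood at 10.8 CPM (female) and 949 CPM (male), from 30 and 2517 counts, and had 1 count in all 12 other libraries together. Reg3d stood at 109.9 and 239 CPM against at most 2.17 CPM. Reg3a was counted 0 and 22 times, Reg3b 0 and 3 times, Reg3g 1 and 3 times and Reg4 0 times in both. The male library was higher for the 3 tested members and, among the untested ones, for Reg3a. Reg3b and Reg3g, with at most 3 counts in a pancreas library, had too few to give a direction.

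Acinar transcription factors were called higher in 10 of 15 tested cases with TMM, none lower (median log2 fold 3.98). With library totals 6 were higher and 5 lower (median 1.18). Of the 18 members found, 1 had both pancreas libraries above all 12 others in CPM and 4 had both below. Over all genes tested these shares were 0.422% and 50.4%, and TMM called 6.33% higher. The list summed to 406 and 378 CPM in pancreas, inside the range of the others (230 to 821 CPM). Rbpjl, the acinar partner of the factor Ptf1a, shares a cluster with Matn4, and that cluster stood at 54.6 and 37.7 CPM against at most 4.16 CPM. Bhlha15, also called Mist1, which organises the secretory apparatus, stood at 56.8 and 37.3 CPM in pancreas and 109.5 ± 8.55 CPM in parotid. Xbp1, the factor of the unfolded protein response, stood at 257 and 281 CPM against 132 to 519 CPM elsewhere. Gata4, Gata6, Foxa2 and Foxa3, factors of endoderm, were at 0.723 to 5.78 CPM in pancreas, with higher levels in stomach. Ptf1a stood at 5.06 and 1.89 CPM and Nr5a2 was counted 0 times in both, and neither had enough counts to be tested. Creb3l2, a factor of the secretory pathway, had a log2 fold of 1.5 with TMM and -1.53 with library totals.

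The promoters of the acinar products are described here since these genes were high together. The 250 bases before each gene's start, from RefSeq GRCm38.p6, were searched on both strands for CACCTG, a form of the E-box bound by bHLH factors such as Ptf1a, and for TTTCCC, the core of the site of RBPJ-type factors. The TATA box, TATAAA, was searched on the gene's strand only. Of 25 windows of acinar products, 12 held CACCTG (48.0%), against 17.2% of all 32851 windows. TTTCCC was in 6 (24.0%, against 21.9%), both motifs were in 4 (16%, against 3.61%) and TATAAA was in 8 (32.0%, against 7.59%). The windows include the copies Amy2a1, Amy2a2, Amy2a3, Amy2a4 and Amy2a5, and Prss3 beside 2210010C04Rik. They therefore stand for fewer than the 25 genes looked for, and Try5, Zg16 and Spink3 were not among them. The windows of near-identical copies share sequence, and a match is a description of the letters only. The 150 bases before the start of Cela1 and Cel are printed because both hold CACCTG and TTTCCC, with every motif found in capitals. A motif on the other strand reads CAGGTG or GGGAAA here. The Cela1 window is chr15:100687921-100688070 and the Cel window chr2:28563404-28563553, both on the minus strand.
Cela1: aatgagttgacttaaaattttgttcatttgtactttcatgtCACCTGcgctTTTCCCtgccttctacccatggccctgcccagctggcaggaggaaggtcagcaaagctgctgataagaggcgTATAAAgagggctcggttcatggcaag
Cel: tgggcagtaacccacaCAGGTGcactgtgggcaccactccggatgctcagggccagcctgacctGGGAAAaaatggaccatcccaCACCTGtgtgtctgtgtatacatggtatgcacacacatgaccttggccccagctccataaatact

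Of 21 genes for secretagogue receptors and calcium signalling, 3 were called higher and 2 lower with TMM (median log2 fold 0.91). Library totals called 1 higher and 13 lower (median -2.05), beside 71.0% lower over all genes tested (median -3.26). Cckar, the cholecystokinin receptor of acinar cells, stood at 75.9 and 49.0 CPM against 0 to 20.4 CPM elsewhere, so that the lower pancreas library was 2.41-fold above the highest other. Kcnq1, a potassium channel, stood at 11.2 and 10.9 CPM, and Vipr1, a receptor for vasoactive intestinal peptide, at 3.98 and 3.02 CPM. Both lay inside the range of the others, and Vipr1 turned from 2.55 to -0.45 with library totals. Itpr1, a calcium release channel, was counted 0 times in both pancreas libraries and stood at 2.34 to 55.4 CPM in the others.

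For translocation into the endoplasmic reticulum, 13 of 28 genes were called higher and none lower with TMM, while with library totals 24 were called lower and none higher. The median log2 fold was 1.03 and -2.01. The summed level of the list was 778 and 756 CPM in pancreas and 1744 to 2441 CPM in the others. Ssr4, a subunit of the translocon-associated complex, had the smallest adjusted p among them (1.33e-09, edgeR), at 223 and 249.7 CPM against 96.9 to 252 CPM. Sec61b, a subunit of the translocon itself, stood at 65.1 and 75.8 CPM against 36.8 to 181 CPM, with log2 folds of 2.78 and, with library totals, -0.26. Srpr, the receptor of the signal recognition particle, had log2 folds of 2.34 and -0.68.

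Some folding enzymes stood out in CPM and others did not. Of 28 tested, 17 were called higher with TMM and 6 of these also with library totals, which called 18 lower. The median log2 fold was 1.47 with TMM and -1.57 with library totals. Over all genes tested, library totals called 71.0% lower, with a median of -3.26. Pdia2, a pancreatic disulfide isomerase, stood at 715 and 555 CPM against at most 305 CPM, in stomach. Erp27, its relative, stood at 231 and 243 CPM against at most 4.03 CPM. Fkbp11, a prolyl isomerase, stood at 65.1 and 67.1 CPM against at most 53.2 CPM, and Ero1b, which oxidises disulfide isomerases, at 9.40 and 10.2 CPM against at most 7.02 CPM. These 4 did not overlap the other libraries, whereas Hspa5, the chaperone BiP, stood at 68.7 and 53.9 CPM against 45.3 to 261 CPM (log2 fold 1.74, and -1.29 with library totals). P4hb, the general disulfide isomerase, stood at 464 and 501 CPM, below the 754 CPM of the female liver library.

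For the unfolded protein response and degradation at the endoplasmic reticulum, 9 of 22 genes were called higher and none lower with TMM (median log2 fold 0.98). With library totals 3 were higher and 12 lower (median -2.04), where 71.0% of all genes were lower (median -3.26). Sel1l, a core part of the degradation complex, stood at 185 and 119 CPM against 23.4 to 135 CPM. Derl3 stood at 32.5 and 26 CPM, with parotid at 41.5 ± 8.29 CPM, and Edem1, which hands over misfolded glycoproteins, at 47.4 and 40.4 CPM. The Golgi and COPII list had 12 of 36 called higher and 1 lower with TMM (median 0.74), and 3 higher and 30 lower with library totals (median -2.29). Tmed6, a p24 family member, stood at 66.2 and 96.9 CPM, below stomach at 123 ± 16.9 CPM. Sec23a, a COPII coat subunit, stood at 0.723 CPM in the female library and was counted 0 times in the male, against 3.18 to 86.9 CPM elsewhere.

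Genes of amino acid supply were called higher in 21 of 33 cases and lower in 2 (median log2 fold 2.02, and -0.90 with library totals). With library totals 10 of the 33 were higher and 15 lower. Slc39a5, a zinc transporter on that list, stood at 62.9 and 47.5 CPM against 2.92 to 26.5 CPM, without overlap. Cbs, which makes cystathionine from homocysteine, stood at 123 and 102 CPM, below liver at 579 ± 236 CPM. Gatm, which makes the creatine precursor, stood at 38.7 and 47.1 CPM. The glutamine transporter Slc38a5 stood at 10.5 and 18.9 CPM, with bone marrow at 38.7 ± 4.96 CPM. Asns, asparagine synthetase, stood at 94.7 and 70.5 CPM, near the median of the others of 103 CPM. Got2, the mitochondrial aspartate aminotransferase, was lower, at 12.7 and 5.66 CPM against at least 32.9 CPM elsewhere.

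Cytosolic ribosomal proteins took 1.30% ± 0.0560 (SD, n = 2) of gene counts, against 2.03% to 8.46% in the others. With TMM, 51 of 68 tested ribosomal proteins were called higher and none lower (median log2 fold 1.47), while with library totals 58 were called lower and none higher (median -1.57). Rps27a, for example, stood at 341 and 256 CPM against 331 to 1181 CPM, with log2 folds of 2.19 and -0.84. Translation factors and tRNA synthetases had 11 of 42 called higher with TMM (median log2 fold 0.42) and 38 called lower with library totals (median -2.60). Eef1a1, the factor that brings tRNA to the ribosome, stood at 674 and 497 CPM against 1035 to 4308 CPM. Eif4ebp1, a brake on cap-dependent initiation, stood at 44.8 and 35.8 CPM, inside the range of 3.16 to 125 CPM. The direction for these lists therefore rests on the scaling, relative to the bulk of genes or to all counts.

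**Figure D3:**
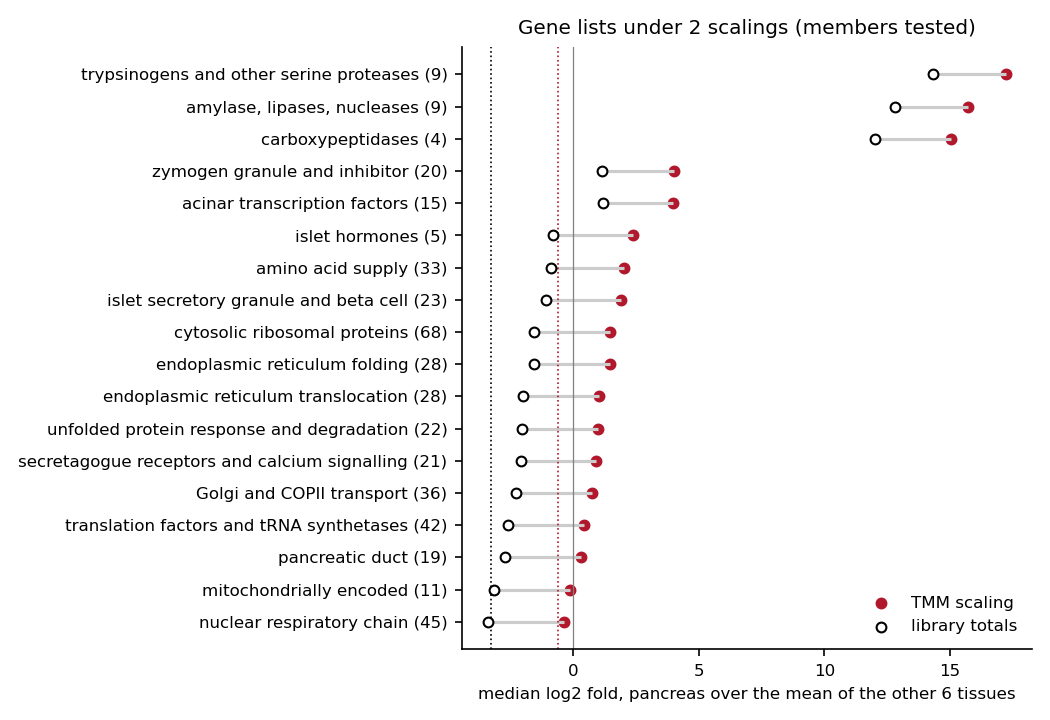
Median log2 fold of pancreas over the mean of the other 6 tissues for 18 gene lists (tested members in brackets), with TMM scaling (filled) and library totals (open); dotted lines are the medians of all genes tested, -0.59 and -3.26. Enzyme lists stay far above 0 under both scalings, while most secretory pathway, ribosomal and islet lists change sign.

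Islet transcripts were present at low levels. Of 5 tested islet hormone genes 3 were called higher (median log2 fold 2.37, and -0.81 with library totals). Gcg, which encodes glucagon, stood at 138 and 53.2 CPM against 0 to 6.93 CPM, and Iapp, the islet amyloid polypeptide of beta cells, at 78.8 and 80.3 CPM against 1.10 to 9.69 CPM. Neither overlapped the others. Sst, somatostatin, stood at 2.89 and 1.51 CPM against up to 658 CPM in hippocampus, and its log2 fold turned from 2.37 to -0.81 with library totals. The insulin genes had too few counts to be tested: Ins2 was counted 1 time in the female and 5 times in the male library, and Ins1 0 and 4 times. These tag counts do not set insulin levels against those of other genes, since a tag depends on a DpnII site in the transcript.

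Islet granule and beta cell genes were called higher in 9 of 23 tested cases and none lower with TMM (median log2 fold 1.91). With library totals 2 were higher and 4 lower (median -1.09). Chga, Chgb, Scg2 and Scg5, the granins and their helper, stood between 1.13 and 3.98 CPM in pancreas, against highest levels of 164, 371, 154 and 263 CPM in the nervous tissues. With library totals Chgb and Scg5 turned to -0.50 and -0.43. Pcsk2, a prohormone convertase, stood at 2.89 CPM in the female library and was counted 0 times in the male, and its log2 fold of 3.22 was -3.40 with tags of code 1 only and -4.64 without the female library. Of 7 tested islet transcription factors, edgeR called 0 higher, with 0 at an unadjusted p under 0.05, and 1 lower. DESeq2 called 0 higher and 1 lower, and limma voom 4 higher and 1 lower. Pdx1 stood at 0.362 CPM in the female library and was counted 0 times in the male, and was highest in stomach.

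Duct genes were mixed, with 8 of 19 called higher and 3 lower with TMM (median log2 fold 0.31). Library totals called 2 higher and 7 lower (median -2.69), where 71.0% of all genes were lower (median -3.26). The defining duct markers were low. Krt19 stood at 4.34 and 3.39 CPM (log2 fold 0.31 ± 0.45, edgeR adjusted p = 0.833), Sox9 at 0.723 and 1.13 CPM, and Cftr was counted 0 and 2 times. Krt8 and Krt18, keratins of simple epithelia, stood at 26 and 29.4 CPM and at 41.9 and 32.8 CPM, inside the range of the others. Muc1, a membrane mucin, stood at 17.4 and 19.6 CPM, with stomach at 226 ± 184 CPM. Car2, carbonic anhydrase 2, and Slc4a4, a bicarbonate cotransporter, were lower, with at most 1.08 and 0.362 CPM in pancreas. Krt7 was lower too, at 2.17 and 0.377 CPM.

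Markers of other cell types were low and partly uneven between the libraries. Of 10 T and natural killer cell genes edgeR called 0, with 1 at an unadjusted p under 0.05, DESeq2 called 0 and limma voom 3. Of 21 proliferation genes edgeR called 0, with 4 at an unadjusted p under 0.05, all lower in pancreas, DESeq2 called 0 and limma voom 5. B and plasma cell genes had 3 of 9 called higher, among them Cd79a at 5.42 and 0.377 CPM (log2 fold 2.62, -0.34 with library totals and -0.14 without the female library) and Jchain at 3.62 and 0.377 CPM, and with library totals 0 were higher and 1 lower. Adipocyte genes had 5 of 11 called higher, led by Cfd at 42.3 and 35.1 CPM and Retn at 6.51 and 2.64 CPM, and with library totals 2 were higher and 3 lower. Fabp4, the adipocyte fatty acid carrier, turned from 2.24 to -0.78 with library totals. Fibroblast and stellate cell genes had 3 of 24 called higher and 1 lower, including Col3a1 at 25.7 and 14.7 CPM (log2 fold 1.90, and -1.11 with library totals). With library totals 0 of the 24 were higher and 22 lower (median 0.10 with TMM and -2.90 with totals). Macrophage genes had 2 of 17 called higher and 1 lower with TMM, and 0 higher and 17 lower with library totals (median -0.50 and -3.36). Endothelial genes had 1 of 14 called higher with TMM, where 6.33% of all genes were. With library totals 0 were higher and 14 lower (median -0.25 with TMM and -3.20 with totals). Over all genes tested, library totals called 71.0% lower, with a median of -3.26.

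Some transcripts of salivary gland and small intestine were counted in the female pancreas library and were scarce in the male. These genes were chosen after their values were seen. Amy1, on the parotid list, was counted 4122 times in the female and 5530 times in the male library. Of the members found, 3 of 12 on the parotid list and 4 of 17 on the duodenal list had 0 counts in both. Among those scarce in the male, Bpifa2, the main salivary secretory protein, was counted 219 times in the female and 9 times in the male library. Smr3a, another salivary protein, was counted 77 and 0 times. Car6, the salivary carbonic anhydrase, was counted 26 and 0 times, and Chia1, the acidic chitinase, 20 and 0 times. Of intestinal markers, Fabp2 was counted 24 and 0 times, Apoa4 21 and 0 times and Rbp2 11 and 0 times. Their levels elsewhere were high, up to 310299 CPM of Bpifa2 in parotid. With TMM, 6.33% of all genes tested were called higher in pancreas than the mean of the other tissues. On the parotid acinar list it was 6 of 12 genes, and on the duodenal list 5 of 8. Of these, 5 turned without the female library, with log2 folds of -5.63 for Smr3a, -4.33 for Car6, -5.43 for Fabp2, -3.98 for Apoa4 and -1.81 for Rbp2. With library totals the parotid list had 3 higher and 1 lower, and the duodenal list 1 higher and 2 lower. DESeq2 called 2 genes of the parotid list and 2 of the duodenal list higher. limma voom called 7 higher and 1 lower on the parotid list and 4 higher on the duodenal list. The parotid acinar list, which holds Amy1, summed to 1669.5 CPM in the female and 2127 CPM in the male pancreas, and to at most 658996 CPM in the others. The duodenal list summed to 52.8 and 15.5 CPM. The source of these counts was not tested.

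Both pancreas libraries lay below all 12 others for 456 called genes (3.11% of those tested), while 7401 genes of those tested (50.4%) lay below in CPM whether called or not. Hbb-b2 and Hba-a1, the globins of blood, stood at 57.5 and 79.2 CPM and at 19.2 and 36.6 CPM, against at least 183 and 62.0 CPM. S100a9, a neutrophil protein, was counted 0 times in both. Apoe, a lipid carrier, stood at 37.6 and 18.9 CPM against at least 80.6 CPM, and Trf, transferrin, at 5.06 and 4.90 CPM against at least 13.9 CPM. The cluster titled Caspase 6 stood at 0.723 CPM in the female and was counted 0 times in the male library, with stomach at 59051 ± 13788 CPM.

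Genes used by most cells were also among them. Hspa8, a constitutive chaperone, stood at 57.8 and 35.5 CPM against at least 183 CPM (log2 fold -1.39 ± 0.33, edgeR adjusted p = 0.00903). Tmsb4x, which binds actin monomers, stood at 44.8 and 40.4 CPM against at least 150 CPM. Pgam1, of glycolysis, stood at 23.5 and 22.6 CPM against at least 93.6 CPM, and Atp1b1, a sodium pump subunit, at 16.6 and 6.41 CPM against at least 42.1 CPM. Hsp90aa1, a heat-inducible chaperone, stood at 6.87 and 4.53 CPM against 30.7 to 872 CPM. As members of the 456, these genes were by definition called lower with TMM and did not overlap the other libraries. Their calls with library totals add little, since all 476 genes called lower with TMM were also lower there. Library totals called 71.0% of all genes tested lower.

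Mitochondrially encoded transcripts took 0.789% ± 0.0608 (SD, n = 2) of the pancreas gene counts and 2.49% to 20.1% of the others. Of the 11 tested, edgeR with TMM called 0 (median log2 fold -0.12), with 3 at an unadjusted p under 0.05, and DESeq2 and limma voom called 0. All 11 were called lower with library totals (median -3.17). Of 45 nuclear genes of the respiratory chain, 3 were called lower and 1 higher with TMM, and 44 lower with library totals. Sdha, a subunit of succinate dehydrogenase, stood at 13.7 and 8.67 CPM against at least 89.5 CPM. Uqcrq, a subunit of complex III, was the 1 called higher, at 122 and 97.3 CPM against 92.4 to 753 CPM, and it turned from 1.96 to -1.07 with library totals.

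Female and male pancreas were compared with 1 library each, on the assumption that this pair varies as the pairs of the other 6 tissues do. No gene of 14682 was called with edgeR (0.0%), and 405 (2.76%) had an unadjusted p under 0.05. Reg2 had the strongest case, higher in the male library by 6.77 ± 0.75 on the log2 scale (edgeR adjusted p = 0.119). It was called by DESeq2 (adjusted p = 9.18e-14), by limma voom (0.00465), with library totals (0.0227) and with a CPM filter (0.00969). The Reg1 difference was 1.88 ± 0.88 (edgeR adjusted p = 1). DESeq2 called 2 genes and limma voom 3. Without the female stomach library 12 genes were called, and without the male 10, among them Reg1, Reg2, Smr3a and Bpifa2. Amy2a was lower in the male by -0.16 ± 1.10 and Ctrb1 higher by 0.84 ± 1.18 on the TMM scale, neither past the test.

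**Figure D4:**
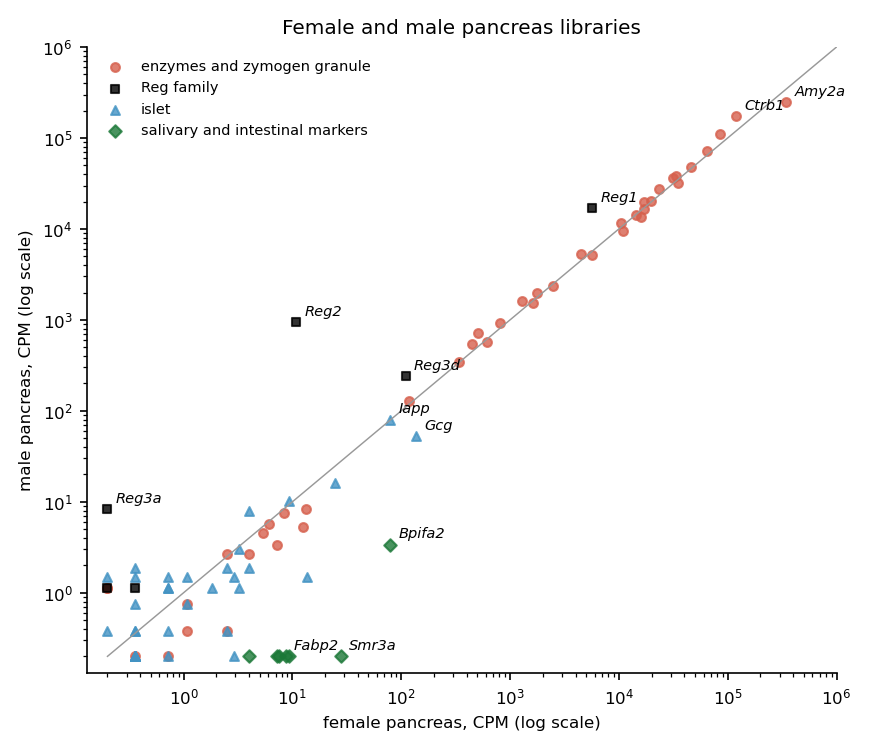
CPM in the female (horizontal) and male (vertical) pancreas library, both on log scales, for enzyme and granule, Reg, islet, and salivary and intestinal genes; the line marks equal levels and a count of 0 is drawn at 0.2 CPM. Most enzymes lie near the line, Reg2 and Reg1 lie above it, and Bpifa2, Smr3a and Fabp2 lie below it.

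The sex labels of the pancreas libraries matched Y-linked genes: Ddx3y was counted 0 times in the female and 24 times in the male library, and Eif2s3y 0 and 4 times. Uty and Kdm5d were counted 0 times in both. Only 1 gene of 14682 (0.00681%) had a sex difference in pancreas that differed from that in the other 6 tissues, and 427 (2.91%) had an unadjusted p under 0.05. Each sex has 1 pancreas library, so the spread in this test comes from the other tissues' pairs and the p does not measure that of pancreas. The called gene was the cluster titled inactive X specific transcripts (difference 8.28 ± 0.895 on the log2 scale, edgeR adjusted p = 0.0035), with 370 counts in the female and 554 in the male pancreas library. It holds 2 tags of interest.
Tag in the pancreas: GATCtccccctccgtgcatc
Tag of the female libraries: GATCacataaatgaactgtg
The first gave 361 and 554 counts in the female and male pancreas libraries, 5 and 3 in stomach and 0 in every other library. The second gave 7 counts in the female and 0 in the male pancreas library, 50 to 224 in the other female libraries and 0 in the other male libraries. Nearly all pancreas counts of this cluster came from the first tag, and the sex difference of the other tissues lies in the second.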

How the data were processed

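Per the labels, mRNA from total RNA was turned into cDNA and digested with DpnII, and the 20-base tag at the last site was counted by sequencing on microbeads. The authors deposited raw counts per distinct tag, with a UniGene cluster and a class code, and no normalization. For the aligner, genome build, UniGene build and code legend, the entry is: not given in the sources used here. Reading codes 1 to 4 as sense tags is an assumption. Counts of these codes were summed per cluster or mitochondrial gene, which gave 22221 genes. Symbols came from the accession or title of a cluster, for 12099 and 2007 genes. Promoters are from RefSeq GRCm38.p6.

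Genes were kept by filterByExpr with tissue as the group (14682 genes). All 14 libraries, scaled by TMM, were fitted with edgeR 4.0.16 in R 4.3.3 on tissue and sex, with 6 residual degrees of freedom. Pancreas was set against the equally weighted mean of the other 6 tissues by the quasi-likelihood F test. A fit with a pancreas-by-sex term, with 5 residual degrees of freedom, tested female against male. Fold changes are log2 ± standard error. The p-values measure the spread between these libraries, and nothing in the labels says that they stand for separate animals. The script was tested on simulated data.

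Lists (38, with 751 of 807 genes found) are described by their calls and medians. The named genes are the 25 most abundant called higher and above all other libraries, 12 each of those called lower and of those with at most 3 counts in any other library, up to 6 of each list, the cell type markers and, for the acinar, Reg, islet and kallikrein lists, all members, from which the text takes a part. Genes named for tags, for salivary or intestinal counts in the female library and for sex were chosen after their values were seen. The members, lists and rules were chosen with earlier results of these data known. Alternatives were other scalings, filters, tag sets, DESeq2 1.42.0, limma 3.58.1 voom, and leaving out each library. Tables and figures were made with Python 3.11.15, pandas 2.3.3, numpy 2.4.6 and matplotlib 3.10.9. Tags on the reverse strand, at other sites or without a gene were left out. Some genes are not reported here.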

Additional observations from a re-analysis of the deposited data

Results flagged for a closer look

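One result is listed for its difference between groups. The male minus female difference of the cluster titled inactive X specific transcripts in pancreas differed from its value in bone marrow, hippocampus, liver, parotid, spinal cord and stomach by 8.28 (log2, edgeR quasi-likelihood test of the difference, adjusted p = 0.0035). The female pancreas library held 370 of its counts and the male 554. Each sex has 1 pancreas library, so the spread in this test comes from the other tissues' pairs and the p does not measure that of pancreas. No cause was tested. Groups of 2 libraries are too small to look for a sample far from the others.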

How the results depend on the processing

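The main numbers were 930 genes called higher and 476 lower. Library totals gave 193 and 10431, and totals without the 10 most abundant genes gave 374 and 6349. limma voom gave 2046 and 1467, and no filter gave 735 lower. Without both stomach libraries, an alternative chosen after the data were seen, 960 were lower. Leaving out each library gave 469 to 1257 higher and 86 to 951 lower. The lowest counts came without a pancreas library and the highest without a stomach library. When 1 pancreas library is left out, the other is assumed to vary like the other tissues. For male against female within pancreas, library totals and the CPM filter each called 1 gene, DESeq2 2 and limma voom 3, against 0, and leaving out libraries called 0 to 12. For the difference of the sex effect, DESeq2 and limma voom each called 2 against 1, and leaving out libraries called 1 to 6. The 10 most abundant genes took 81.1% with the most abundant tag of each gene, against 80.3%.

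With library totals the median log2 folds were -2.05 for secretagogue receptors, -2.01 for translocation, -1.57 for folding, -2.04 for the unfolded protein response, -2.29 for Golgi transport, -0.90 for amino acid supply, -2.60 for translation factors, -1.57 for ribosomal proteins, -0.81 for islet hormones, -1.09 for islet granules and -2.69 for duct. Totals without the 10 most abundant genes gave -0.59 for secretagogue receptors, -0.50 for translocation, -0.066 for folding, -0.53 for the unfolded protein response, -0.78 for Golgi transport, -1.10 for translation factors, -0.060 for ribosomal proteins and -1.21 for duct. Of 115 called genes named in the text, 63 kept direction and call under every alternative that gave a value for them (not every gene has a value under each), and 15 turned with library totals: Rab3d -0.48, Creb3l2 -1.53, Vipr1 -0.45, Sec61b -0.26, Srpr -0.68, Hspa5 -1.29, Eef1a1 -1.75, Rps27a -0.84, Sst -0.81, Chgb -0.50, Scg5 -0.43, Fabp4 -0.78, Cd79a -0.34, Col3a1 -1.11 and Uqcrq -1.07. Without the 10 most abundant genes in the totals, Creb3l2 was -0.016 and Eef1a1 -0.24. With code 1 only, Pcsk2 was -3.40. Over the fits that leave out 1 library, lowest without female pancreas, the log2 fold ran from -4.64 to 4.17 for Pcsk2, -0.14 to 3.49 for Cd79a, -5.43 to 4.97 for Fabp2, -3.98 to 6.31 for Apoa4, -1.81 to 7.67 for Rbp2, -5.63 to 6.46 for Smr3a and -4.33 to 5.62 for Car6. The turns with library totals follow from the scaling, which moved the median of all genes tested from -0.59 to -3.26. The cause of the others was not tested.

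The titles give 1 female and 1 male library of each tissue and no replicate numbers, so the sex term is the block. With no replicate block 930 genes were called higher and 489 lower. With 327522 and 311933 counts outside the enzymes, the pancreas libraries measure other genes at less depth than the rest, and 3661 tested genes had 0 counts in both.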
